A study of Mus with 4 samples.

Results

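Notch signalling passes from a ligand on one cell to a receptor on its neighbour. Binding leads to cleavage of the receptor by γ-secretase, and the freed intracellular domain enters the nucleus, joins the DNA-binding protein RBPJ and a Mastermind coactivator, and switches on targets such as *Hes1*. In adult tissues the pathway is best known for its part in blood vessels, where *Dll4*, *Jag1* and *Notch1* act in endothelial cells and *Notch3* in the mural cells around them. N6-methyladenosine (m6A) is a methyl mark on mRNA that is written by a complex of METTL3, METTL14 and WTAP and tends to gather near stop codons and in 3′ untranslated regions.

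The m6A marks of 10 genes of this pathway were described here: the receptors *Notch1*, *Notch2*, *Notch3* and *Notch4*, the ligands *Jag1*, *Jag2* and *Dll4*, the nuclear partners *Maml1* and *Rbpj*, and the target *Hes1*. They were found by gene symbol in 2 lists of m6A peaks. The genes held 27 of the 18400 peaks in the *Wtap* flox/flox list and 28 of the 18693 peaks in the *Wtap*-BKO list. Every member had a peak in both lists, so 0 of the 10 was without one. Over all genes of the *Wtap* flox/flox list, 82.3% also had a peak in the *Wtap*-BKO list, and the reverse share was 82.5%.

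The lists come from MeRIP-seq, in which fragmented poly(A)+ RNA is pulled down with an antibody against m6A (IP) and compared with the unselected RNA (input), of interscapular brown adipose tissue (iBAT) of 8-week-old C57BL/6 mice on normal chow. There were 4 samples, an IP and an input of each genotype, and each was pooled from 8 mice. *Wtap* flox/flox mice carry *Wtap* alleles with loxP sites around exon 4 and no Cre, and served as controls. *Wtap*-BKO mice carry the same floxed alleles and *Ucp1*-iCre, which is driven from the *Ucp1* locus and so removes *Wtap* from brown adipocytes, whereas the vessel, immune and connective tissue cells of iBAT are not its target. The question put to the genes is which of their m6A peaks were listed in both genotypes.

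With 1 pooled sample per genotype there is no replicate, no difference could be set against the spread between mice, and no test was made. The depth behind the lists is unknown, and absence from a list means no more than that no peak passed the authors' threshold there. A peak was counted as matched, or found, if the other list held a same-strand peak with 1 or more exonic bases in common. The strength of a peak is given as its log10 false discovery rate, which is more negative for a stronger peak, and as its fold enrichment of IP over input. As rank, the percentage of peaks in the same list with a weaker false discovery rate was used, so that a rank of 90.0 means stronger than 90.0% of that list. Positions are on GRCm38, peaks are numbered from the 5′ end of the gene, and distances to a gene end run from the middle of the peak along the genome to the end of the RefSeq gene. The lists give each peak as 1 or more blocks on a gene, whose bases are called exonic here without a check against an exon annotation, and their place in coding sequence or untranslated region was not analysed here.

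Of the 27 *Wtap* flox/flox peaks on the 10 genes, 24 were found in the *Wtap*-BKO list, or 88.9% (95% Wilson interval 71.9 to 96.1), whereas 67.8% of all *Wtap* flox/flox peaks were found. In the other direction 22 of 28 *Wtap*-BKO peaks were found, or 78.6% (60.5 to 89.8), beside 68.0% of all. These shares are not matched for strength: the median rank of member peaks was 64.3 and 65.7, and stronger peaks were found more often in general. The unmatched peaks numbered 3 and 6, where 32.2% and 32.0% of all peaks were unmatched. The map of the peaks shows a main body of m6A at the 3′ end of most genes that was present in both genotypes, with the unmatched peaks lying at the 5′ end, on *Rbpj*, or beside a matched peak. The intervals cover no more than counting error, and they take peaks as independent although those of 1 gene share its transcript.

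**Figure D1:**
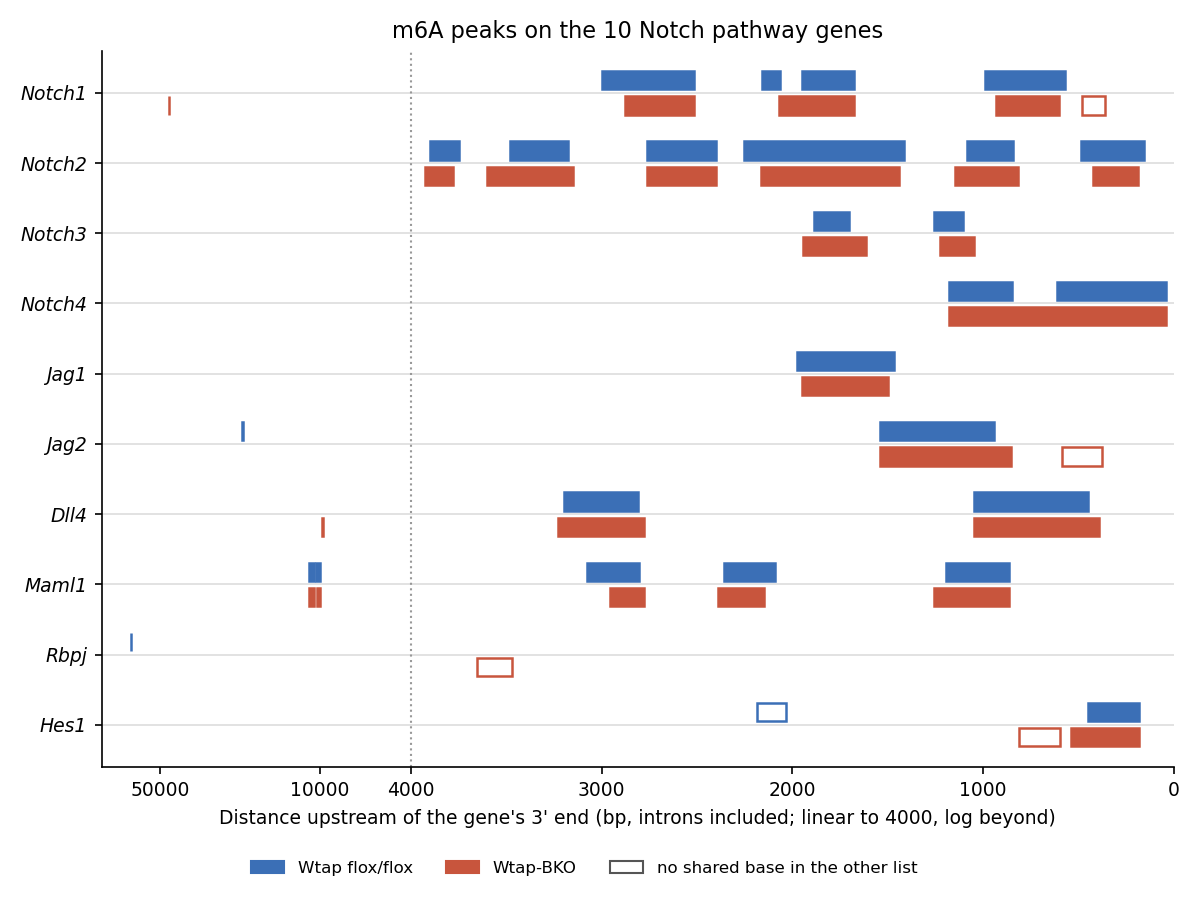
Peaks of the 10 genes in the control (*Wtap* flox/flox, blue) and knockout (*Wtap*-BKO, red) iBAT by distance of the peak from the 3′ end of its gene in bp, linear to the right of the dotted line and logarithmic to its left; bar width is the number of exonic bases, and open bars share no base with the other list. Left of the dotted line bars shrink to lines, and there only the 2 pairs on *Maml1* are matched; 24 of 27 blue and 22 of 28 red peaks are matched.

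*Notch1* (ENSMUSG00000026923, chr2:26457902-26503822, minus strand), the receptor best known from endothelial and T cells, carried 4 peaks in *Wtap* flox/flox iBAT and 5 in *Wtap*-BKO iBAT. Its strongest peak lay near the 3′ end in both, at chr2:26458472-26458892 with a log10 false discovery rate of -98.7 and a fold enrichment of 12.1 in *Wtap* flox/flox, and at chr2:26458502-26458832 with -63.7 and 5.05 in *Wtap*-BKO. The ranks were 95.5 and 95.1, so by false discovery rate this was among the strongest peaks of either list. By fold enrichment it was higher than 76.5% of the *Wtap* flox/flox list and 53.3% of the *Wtap*-BKO list. The same bases carried a peak of an unnamed gene on the other strand, ENSMUSG00000086714, which shared 415 bases with the *Notch1* peak in *Wtap* flox/flox iBAT and 326 in *Wtap*-BKO. Its log10 false discovery rates of -98.9 and -63.7 were nearly those of the *Notch1* peak, and reads of the 2 strands cannot be told apart because the sources used here do not state strand-specific counting. No peak of the other 9 genes overlapped a peak of another gene.

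Further upstream, a *Notch1* peak at chr2:26460420-26460899 in *Wtap* flox/flox (log10 false discovery rate -52.9, fold 7.81) had the same 3′ edge as the *Wtap*-BKO peak at chr2:26460420-26460779 (-41.0, fold 5.79), with ranks of 90.0 and 91.1. Between them *Wtap* flox/flox held 2 weaker peaks, chr2:26459970-26460060 (-3.04, fold 2.09) and chr2:26459581-26459850 (-12.6, fold 2.87). *Wtap*-BKO held a single peak there, chr2:26459581-26459970 (-41.1, fold 3.32), which ranked 91.1 where the 2 partners ranked 17.5 and 62.5. The first of the partners shared no more than 1 base with it. A pair of *Wtap*-BKO peaks on *Notch1* were not found in the other list: chr2:26458263-26458382 (-3.22, fold 2.07), which lay 89 bp from the strongest *Wtap* flox/flox peak, and a spliced peak at chr2:26503655-26509621 (-4.82, fold 19.7) at the 5′ end, with 170 bases in the first block and 10 in the other, outside the RefSeq gene.

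*Notch2* (ENSMUSG00000027878, chr3:98013538-98150367, plus strand), the receptor with the widest distribution among tissues, had the most bases under peaks of the 10 genes in both lists. It carried 6 peaks in each list, and all 12 were found in the other. Exonic bases under peaks came to 2221 in *Wtap* flox/flox iBAT and 2252 in *Wtap*-BKO, with 1982 in common. The strongest peak was chr3:98148115-98148953 in *Wtap* flox/flox (log10 false discovery rate -49.7, fold 19.4) and chr3:98148205-98148924 in *Wtap*-BKO (-46.2, fold 7.89). The fold was lower in *Wtap*-BKO, also by rank, at 91.5% and 69.7% of each list with a lower fold. By false discovery rate the ranks were 89.2 and 92.3. The peak before it, chr3:98147606-98147965, had the same edges in both lists, with log10 false discovery rates of -39.9 and -37.6 and folds of 14.4 and 12.6. The last 2 peaks toward the 3′ end, at chr3:98149283-98149522 and chr3:98149882-98150211 in *Wtap* flox/flox, had log10 false discovery rates of -16.4 and -13.6 there and of -13.6 and -10.7 in *Wtap*-BKO. The first 2 of the run were the weakest in *Wtap* flox/flox, at -2.64 and -8.77, and stood at -4.59 and -11.0 in *Wtap*-BKO. The *Wtap* flox/flox list held 208 genes with 6 or more peaks.

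*Notch3* (ENSMUSG00000038146, chr17:32120820-32166896, minus strand), the receptor of smooth muscle cells and pericytes, had no strong peak in either list. Its peaks were chr17:32122524-32122704 and chr17:32121926-32122076 in *Wtap* flox/flox, with log10 false discovery rates of -4.78 and -3.29 and folds of 2.56 and 2.06. In *Wtap*-BKO they were chr17:32122435-32122763 and chr17:32121866-32122046, with -8.45 and -4.23 and folds of 2.97 and 2.58. Both peaks were found in both directions, and the bases under them went from 332 to 510. The ranks were 35.6 and 20.7 in *Wtap* flox/flox and 59.0 and 35.1 in *Wtap*-BKO.

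*Notch4* (ENSMUSG00000015468, chr17:34564286-34588543, plus strand), a receptor found mostly in endothelial cells, carried 2 *Wtap* flox/flox peaks where *Wtap*-BKO had 1 long one. The former were chr17:34587205-34587694 (log10 false discovery rate -40.5, fold 15.5) and chr17:34587934-34588503 (-25.3, fold 7.98). The *Wtap*-BKO peak, chr17:34587205-34588503 (-45.1, fold 13.1), began and ended at the same bases as the pair and covered the stretch between them. It held 1140 exonic bases, all 901 of the *Wtap* flox/flox pair among them, and ranked 92.0 where the pair ranked 86.4 and 78.1. The lower number of peaks on *Notch4* in *Wtap*-BKO thus went with more bases under peaks.

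The ligand *Jag1* (ENSMUSG00000027276, chr2:137081451-137116520, minus strand), a Jagged ligand of endothelial and smooth muscle cells, had 1 peak in each list. It was chr2:137082920-137083428 in *Wtap* flox/flox (log10 false discovery rate -50.9, fold 10.5) and chr2:137082950-137083398 in *Wtap*-BKO (-54.4, fold 9.65). All 449 bases of the *Wtap*-BKO peak lay within the 509 of the other, and the ranks were 89.5 and 93.7. *Jag1* had the lowest ratio of bases under peaks of the 10 genes, 0.882 in *Wtap*-BKO over *Wtap* flox/flox.

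*Jag2* (ENSMUSG00000002799, chr12:112907803-112929812, minus strand), the second Jagged ligand, had a strong peak in common and a weak one in each list without a partner. The strong peak was chr12:112908746-112909343 in *Wtap* flox/flox (log10 false discovery rate -68.3, fold 12.8, rank 92.7) and chr12:112908656-112909343 in *Wtap*-BKO (-74.9, fold 10.8, rank 96.1). The *Wtap* flox/flox list also had chr12:112929597-112929716 (-2.90, fold 12.7), with its middle 156 bp from the 5′ end of the gene. The *Wtap*-BKO list instead had chr12:112908178-112908387 (-2.99, fold 2.46), toward the 3′ end, 268 bp from the strong peak of the same list and 358 bp from that of *Wtap* flox/flox. These weak peaks ranked 15.5 and 19.7.

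*Dll4* (ENSMUSG00000027314, chr2:119325784-119335666, plus strand), the Delta ligand of endothelial cells that restrains vessel sprouting, had the strongest *Wtap*-BKO peak of the 10 genes. Of its 2 shared peaks, both spliced, the upstream one was chr2:119332468-119334058 in *Wtap* flox/flox (log10 false discovery rate -59.8, fold 8.81) and chr2:119332438-119334088 in *Wtap*-BKO (-86.3, fold 16.8). The downstream one was chr2:119334148-119335216 (-53.3, fold 8.14) and chr2:119334148-119335275 (-68.2, fold 14.5). As deposited, both had a smaller false discovery rate and a larger fold in *Wtap*-BKO, and their ranks went from 91.4 to 96.8 and from 90.1 to 95.5. All 987 *Wtap* flox/flox bases were also under *Wtap*-BKO peaks, which held 1286. The remaining *Wtap*-BKO peak, chr2:119325814-119325993 (-5.50, fold 22.8), had its middle 119 bp from the 5′ end, lay 6474 bp from the nearest *Wtap* flox/flox peak and had the highest fold of all member peaks.

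*Maml1* (ENSMUSG00000050567, chr11:50255634-50293131, minus strand), a Mastermind coactivator that binds the receptor's intracellular domain with RBPJ, carried 5 peaks in each list, and all 10 were found in the other. The strongest was chr11:50266311-50266759 in *Wtap* flox/flox (log10 false discovery rate -20.2, fold 8.92) and chr11:50266311-50266819 in *Wtap*-BKO (-16.6, fold 6.89), at ranks of 73.4 and 76.4. It and its neighbour at chr11:50265684-50266013 lay 10901 and 10214 bp from the 3′ end, farther than any other matched peak of the 10 genes. From there toward the 3′ end, the 4 weaker *Wtap* flox/flox peaks had log10 false discovery rates of -6.44, -7.04, -8.57 and -3.14, and their *Wtap*-BKO partners -8.52, -5.66, -10.6 and -8.28. By false discovery rate the third peak of *Maml1* was the member pair that lost the most rank, from 47.3 to 46.2, though not by fold enrichment. The fifth, chr11:50256500-50256829, gained by false discovery rate from 19.0 to 58.4. Bases under peaks were 1649 and 1620, of which 1410 were shared. At least 5 peaks were held by 4.30% of all genes in the *Wtap* flox/flox list and 4.81% of those in the *Wtap*-BKO list.

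*Rbpj* (ENSMUSG00000039191, chr5:53555779-53657445, plus strand), the DNA-binding partner on which canonical Notch transcription rests, differed from the other members in that no peak was shared. The *Wtap* flox/flox peak was chr5:53590514-53590694, with a log10 false discovery rate of -3.40 and a fold of 16.5, at 66841 bp from the 3′ end. The *Wtap*-BKO peak was chr5:53653792-53653972, with -4.51 and 3.47, at 3563 bp from that end. Each held 181 bases, the distance between them was 63097 bp, and the ranks were 21.9 and 37.7. A count of genes with a peak thus places *Rbpj* among those marked in both genotypes, although the marked bases had none in common.

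*Hes1* (ENSMUSG00000022528, chr16:30065357-30067796, plus strand), a transcriptional repressor and the classical Notch target, had a shared peak close to the 3′ end. It was chr16:30067347-30067616 in *Wtap* flox/flox (log10 false discovery rate -42.4, fold 7.42) and chr16:30067257-30067616 in *Wtap*-BKO (-51.0, fold 8.32), with the same 3′ edge and ranks of 87.1 and 93.2. The *Wtap* flox/flox list held a further, spliced peak at chr16:30065610-30065892 (-2.89, fold 3.65), with its middle 328 bp from the 5′ end. The *Wtap*-BKO list held one at chr16:30066987-30067197 (-7.73, fold 3.20), 59 bp from its neighbour in the same list and 149 bp from the nearest *Wtap* flox/flox peak. With a rank of 56.4 the latter was the strongest member peak without a partner.

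By false discovery rate, most unmatched peaks of the 10 genes ranked in the lower part of their list, but by fold enrichment several ranked high. The 3 *Wtap* flox/flox peaks without a partner, on *Jag2*, *Rbpj* and *Hes1*, ranked 15.3 to 21.9, and the median rank of the 24 with one was 71.0. The 6 *Wtap*-BKO peaks without a partner ranked 19.7 to 56.4, and the median of the 22 with one was 83.2. By fold enrichment the unmatched 5′ peaks of *Dll4* and *Notch1* in *Wtap*-BKO were higher than 96.6% and 94.8% of their list, and those of *Rbpj* and *Jag2* in *Wtap* flox/flox higher than 87.2% and 77.5%. The other 5 were higher than 10.1% to 35.8%. Among the strongest 20% of *Wtap* flox/flox peaks were 10 member peaks, all found, where 90.5% of all peaks of that strength were found. The strongest 20% of the *Wtap*-BKO list held 11, also all found, beside 97.5%. In the 3 steps of 20% below it, *Wtap*-BKO members found were 5 of 5, 4 of 7 and 2 of 4, beside 86.9%, 67.0% and 52.4%. In the same steps of the *Wtap* flox/flox list they were 5 of 5, 4 of 4 and 2 of 3, beside 82.6%, 68.0% and 56.6%. In the weakest 20% of the *Wtap* flox/flox list 3 of 5 member peaks were found, beside 41.4%, and that of the *Wtap*-BKO list held 1, which was not, beside 36.3%.

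A false discovery rate under 1e-05 was reached by 19 of the 27 *Wtap* flox/flox peaks and 22 of the 28 *Wtap*-BKO peaks, where 63.1% and 58.4% of all peaks reached it. All 19 of the former were found in the *Wtap*-BKO list, beside 79.6% of all such peaks, and 20 of the latter were found in the other list, beside 84.6%. The 2 exceptions were the *Hes1* peak just described and the 5′ peak of *Dll4*. Every *Wtap* flox/flox peak had a partner on 7 genes, all but *Jag2*, *Rbpj* and *Hes1*, and 53.9% of all genes were of this kind. Every *Wtap*-BKO peak had a partner on 5, *Notch2*, *Notch3*, *Notch4*, *Jag1* and *Maml1*, beside 52.3%.

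By median, member peaks lay closer to the 3′ end than peaks did in general, but in *Wtap* flox/flox the share within 1000 bp or less did not exceed that of all peaks. The median distance was 1833 bp in *Wtap* flox/flox iBAT and 1779 bp in *Wtap*-BKO, and over all peaks inside their gene 2975 and 3407 bp. Within 5000 bp were 23 of 27 *Wtap* flox/flox peaks (62.0% of all) and 24 of the 27 *Wtap*-BKO peaks that lie inside their gene (58.7%). Within 2000 bp the counts were 14 (39.5%) and 16 (36.3%), within 1000 bp 6 (22.9%) and 9 (20.5%), and within 500 bp 3 (11.9%) and 4 (10.2%). Of the peaks within 5000 bp, 22 of 23 *Wtap* flox/flox peaks had a partner, beside 67.8% of all such peaks, and 20 of 24 *Wtap*-BKO peaks, beside 72.4%.

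At the other end, none of the 4 peaks with a middle within 1000 bp of the 5′ end of the gene had a partner. They were those of *Jag2* and *Hes1* in *Wtap* flox/flox and of *Notch1* and *Dll4* in *Wtap*-BKO, so no gene had a 5′ peak in both lists. Of all peaks inside their gene, 11.4% of the *Wtap* flox/flox ones and 12.7% of those in *Wtap*-BKO lay within 1000 bp of the 5′ end, and 69.7% and 61.8% of them were found in the other list. Peaks split over several exon blocks numbered 4 in each list of members, where 15.4% and 19.8% of all peaks were split.

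The edges of matched peaks were close. In the 20 matched pairs with 1 block on each side there were 40 edges, of which 8 fell on the same base and 35 differed by at most 91 bases. All 40 differences were within 1 base of a multiple of 30, so edges moved in steps, and a shift of an edge by 1 step is the smallest the lists resolve. The largest, 389 bases, belonged to the *Notch1* pair with 1 shared base.

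Matched member peaks tended to stand higher in the *Wtap*-BKO list than their partners did in the *Wtap* flox/flox list. Of 24 pairs, 22 had a higher rank by false discovery rate in *Wtap*-BKO, and 53.5% of all 13772 pairs did. The pairs are not independent. A *Wtap*-BKO peak on *Notch1* and one on *Notch4* were each paired with 2 *Wtap* flox/flox peaks, and pairs on 1 gene share its transcript. A lower rank was found for 2 pairs, the strongest peak of *Notch1* and the third of *Maml1*, beside 46.5% of all pairs. The median difference was 5.57 percentage points over member pairs and 1.11 over all, and 14 of the 24 pairs moved by under 10 points, beside 37.5% of all pairs. By fold enrichment 20 pairs ranked higher, beside 48.9%, and 4 lower, beside 51.1%, with a median difference of 10.4 points against -0.611 over all pairs.

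**Figure D2:**
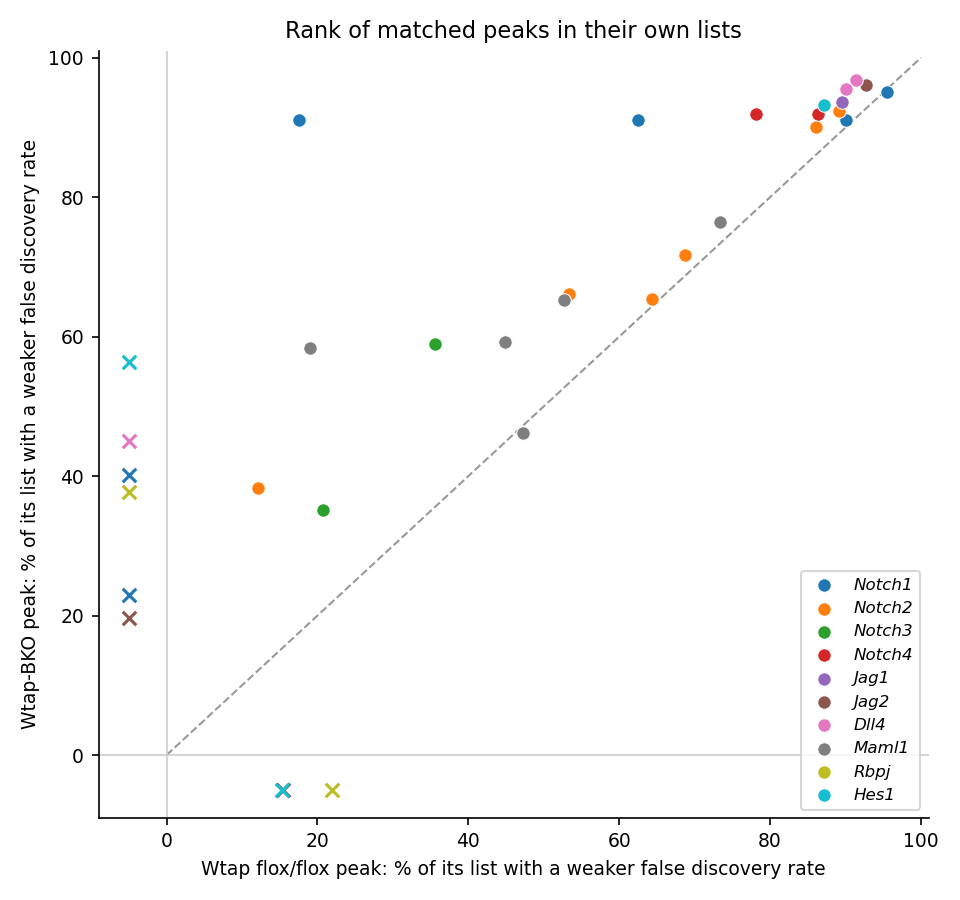
Rank of each matched member peak, as the percentage of its own list with a weaker false discovery rate, in *Wtap* flox/flox (x axis) and *Wtap*-BKO (y axis), with 1 point per pair, coloured by gene; crosses outside the axes are peaks without a partner, where those of *Jag2* and *Hes1* in *Wtap* flox/flox overlie each other. Of 24 points, 22 lie above the dashed line of equal rank, most of them by under 10 points.

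Values as deposited moved less evenly. The false discovery rate was smaller in *Wtap*-BKO for 16 of 24 pairs, beside 43.0% of all pairs. The fold enrichment was larger for 10 and so smaller for most, beside 34.7% larger over all pairs. A rank removes any shift that a whole list shares, and the direction by fold therefore depends on whether values are ranked. The largest gain in rank, 73.6 points, belonged to the *Notch1* pair that shares 1 base, followed by 39.3 for the fifth peak of *Maml1*, 28.5 for the other partner of that *Notch1* peak, 26.2 for the first of *Notch2* and 23.4 for the first of *Notch3*. Where a pair had to share at least 50% of both peaks, 22 pairs were left and 20 ranked higher, beside 58.7% of all such pairs.

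By gene, the strongest peaks of the 2 lists shared bases on 9 of 10 members, all but *Rbpj*, and on 76.1% of all genes with peaks in both lists. The strongest peak ranked higher in *Wtap*-BKO on 9 genes, all but *Notch1*, and on 51.8% of all. The number of peaks was the same on 7 genes, beside 50.6%, with 1 more in *Wtap*-BKO on *Notch1* and *Dll4* and 1 fewer on *Notch4*. Member genes had 2.70 peaks on average in *Wtap* flox/flox iBAT and 2.80 in *Wtap*-BKO, and all genes in those lists 1.89 and 1.92. The median member peak covered 330 exonic bases in each list, and the median of all peaks was 240 and 210.

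Bases under peaks came to 9181 in *Wtap* flox/flox iBAT and 10288 in *Wtap*-BKO over the 10 genes, with 7861 in both. These shared bases made up 85.6% and 76.4% of the member bases, and the shares over all genes were 61.4% and 67.6%. More bases were under peaks in *Wtap*-BKO on 7 genes, beside 42.3% of all genes with peaks in both lists, fewer on *Jag1* and *Maml1*, and equally many on *Rbpj*. The ratio ranged from 0.882 on *Jag1* to 1.54 on *Notch3*, with *Notch2* at 1.01, *Notch1* at 1.09, *Jag2* at 1.25, *Notch4* at 1.27, *Dll4* at 1.30 and *Hes1* at 1.36. Its median was 1.17, and 0.942 over all genes with peaks in both lists.

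**Figure D3:**
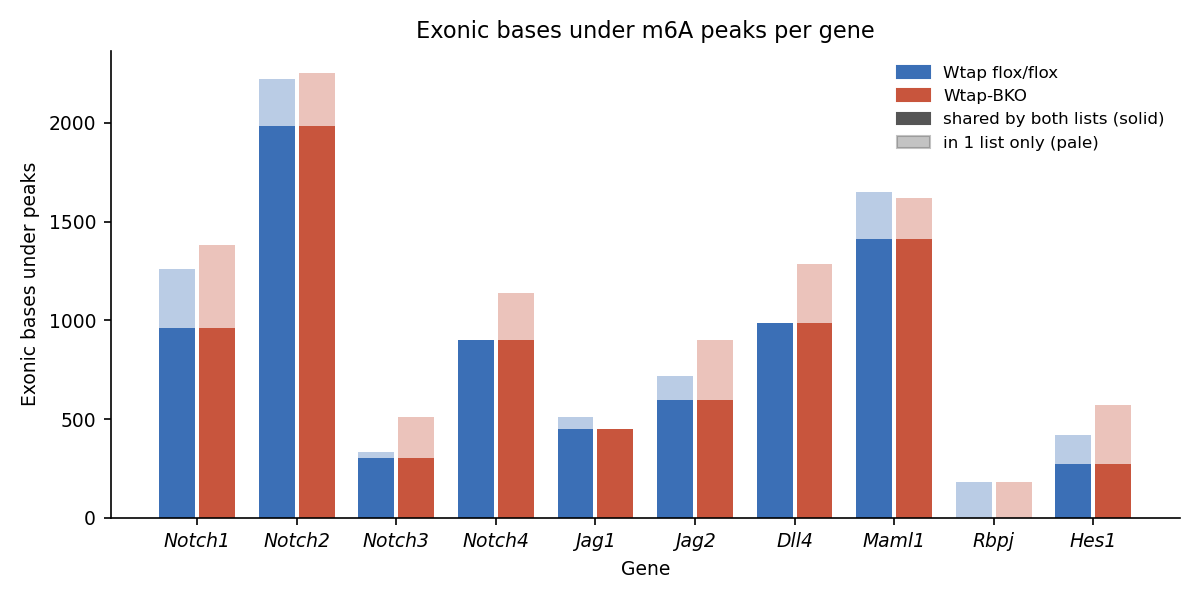
Number of exonic bases under peaks on each of the 10 genes in the control (*Wtap* flox/flox, blue) and knockout (*Wtap*-BKO, red) list, with bases covered in both lists solid and bases covered in 1 list pale. *Rbpj* has no solid part, and *Wtap*-BKO is the taller bar on 7 genes.

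Pathway genes beyond the members were split evenly between more and fewer bases under peaks. A list of 71 pathway genes, the 10 members included, was laid out by role, and 59 of them had a peak. Both lists held 50, the *Wtap* flox/flox list alone 4 and the *Wtap*-BKO list alone 5, and 12 had none. Of all gene symbols with a peak, 73.3% were in both lists, 13.5% in *Wtap* flox/flox alone and 13.2% in *Wtap*-BKO alone. Among the 61 pathway genes that are not members, 20 of the 40 with peaks in both lists had more bases under peaks in *Wtap*-BKO and 20 fewer. Of all genes with peaks in both lists, 42.3% had more. Of their 87 matched pairs 48 ranked higher in *Wtap*-BKO by false discovery rate, beside 53.5% of all pairs. The median difference was 1.30 points, beside 1.11 over all pairs.

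**Figure D4:**
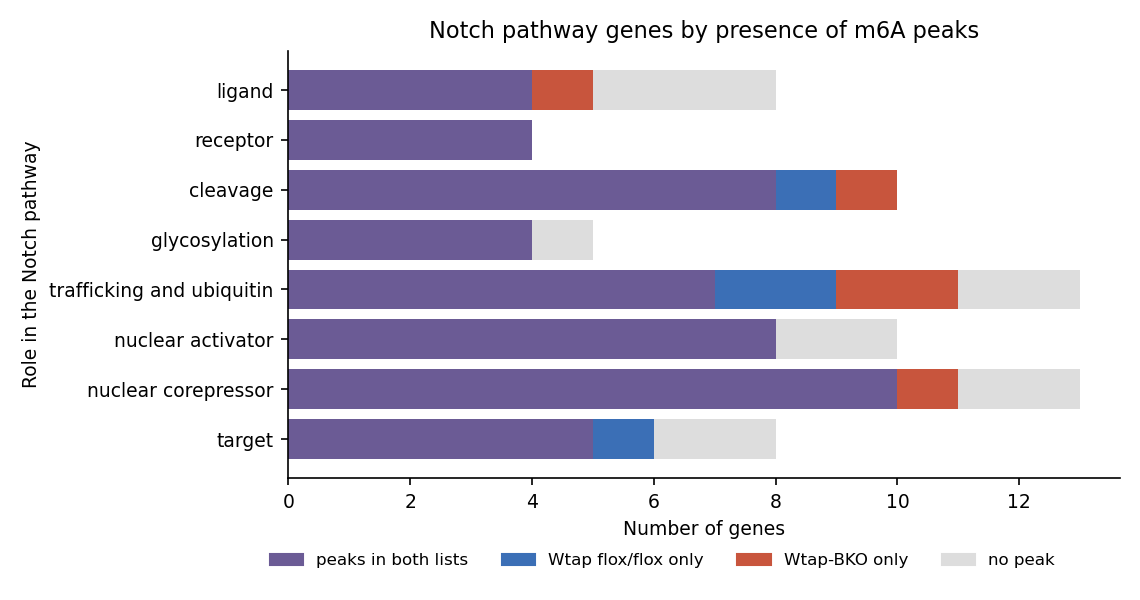
Number of Notch pathway genes by role, of 71 in all, with m6A peaks in both lists, in 1 list alone or in neither. All 4 receptors and all 10 genes of receptor cleavage have a peak, and genes with a peak in 1 list alone number 4 for *Wtap* flox/flox and 5 for *Wtap*-BKO.

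By role, matched pairs on the 4 receptors ranked higher in *Wtap*-BKO in 13 of 14 cases, and those on the ligands in 7 of 7. Of all pairs, 53.5% ranked higher. All 4 receptors are members, and so are 3 of the 4 ligands with peaks in both lists. Of the 10 genes of receptor cleavage, 8 had peaks in both lists, with 7 of 12 pairs higher. On the corepressors, which hold targets silent when no signal is present, 15 of 33 pairs were higher. The counts were 4 of 7 on glycosylation genes and 8 of 12 on trafficking and ubiquitin genes. On nuclear activators and targets, roles that include members, they were 11 of 18 and 5 of 8. Ligands without a peak were *Dll3*, *Dlk2* and *Dner*, and targets without one *Hes5* and *Hes7*.

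The 4 genes with peaks in *Wtap* flox/flox alone were *Itch*, *Aph1b*, *Neurl1a* and *Hey2*. *Itch*, a ubiquitin ligase that acts on Notch, had 2 peaks, the stronger with a log10 false discovery rate of -21.1. *Aph1b*, a subunit of γ-secretase, had 1 of -9.43, *Neurl1a*, a ubiquitin ligase, 1 of -3.69, and *Hey2*, a target in vessels, 1 of -3.49. The genes with peaks in *Wtap*-BKO alone were *Psenen*, another subunit of γ-secretase (-8.62), *Numb*, an inhibitor of the receptor with 2 peaks (the stronger -5.97), *Dlk1*, a ligand-like protein of preadipocytes (-3.17), *Mib1*, a ubiquitin ligase that activates ligands (-2.86), and *Tle4*, a corepressor (-2.03). The highest rank among these 9 genes was 74.3 on *Itch*, followed by 59.6 on *Psenen* and 55.2 on *Aph1b*, and the others ranked under 50.

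Beside *Notch1*, *Jag2* and *Dll4*, further pathway genes with peaks in both lists had one in the strongest 5% of either. *Furin*, the protease that cuts the receptor on its way to the surface, went from a log10 false discovery rate of -230.0 in *Wtap* flox/flox to -63.6 in *Wtap*-BKO. Its fold went from 10.9 to 3.81, but its rank only from 98.6 to 95. *Ncstn*, the γ-secretase subunit that receives the substrate, went from -102.0 to -36.5 and from a rank of 95.7 to one of 89.8. *Ncor1*, a corepressor, went from -173.0 to -62.5 and from a rank of 98.1 to one of 94.9. *Heyl*, a target, went in rank from 94.1 to 96.9, and *Ep300*, an acetyltransferase that joins the active complex, stood at 96.0 and 96.1.

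By rank of false discovery rate and by genes with more bases under peaks, markers of several other cell types leaned the same way as the members. Brown adipocyte markers did not. By fold rank, mural cell and macrophage markers stayed near the share over all pairs. All 19 endothelial markers had a peak, 16 in both lists and *Tie1*, *Emcn* and *Egfl7* in *Wtap*-BKO alone. On all 16, more bases were under peaks in *Wtap*-BKO. Of 34 matched pairs, 31 ranked higher there by false discovery rate and 27 by fold, beside 53.5% and 48.9% of all pairs. Their bases under peaks summed to 13981 in *Wtap* flox/flox, from 0 to 2276 a gene, and to 19106 in *Wtap*-BKO, from 121 to 2604 a gene. Mural cell markers had more bases in *Wtap*-BKO on 6 of 8 genes, with sums of 8073 and 7954. Of their 16 pairs, 11 ranked higher by false discovery rate and 8 by fold.

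Fibroblast markers had more on 8 of 9 genes, with sums of 3748 and 7372. Of their 11 pairs, 11 ranked higher by false discovery rate and 8 by fold. Macrophage markers had more on 6 of 9, with sums of 3892 and 8708 and a further 4 markers in *Wtap*-BKO alone. Of their 15 pairs, 13 ranked higher by false discovery rate and 7 by fold. T/B lymphocyte markers had peaks on 4 genes in both lists and on 6 in *Wtap*-BKO alone, and skeletal muscle markers on 4 and 8. Neither list held the remaining 5 of the 15 lymphocyte genes and 2 of the 14 muscle genes. Over all gene symbols with a peak, 13.2% were in *Wtap*-BKO alone. Skeletal muscle is not among the iBAT cell types named in the paper's text, and the source of its RNA in these pools was not tested. Brown adipocyte markers, all 17 of which had a peak, had fewer bases in *Wtap*-BKO on 9 of 16 genes and more on 6. The sums were 14780 and 11632, and of 39 pairs 20 ranked higher by false discovery rate and 21 by fold. The part of these shifts in the values of the Notch genes was not tested. In bulk tissue, fewer cells of a type and less RNA per cell cannot be told apart, and a peak list does not measure transcript level.

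**Figure D5:**
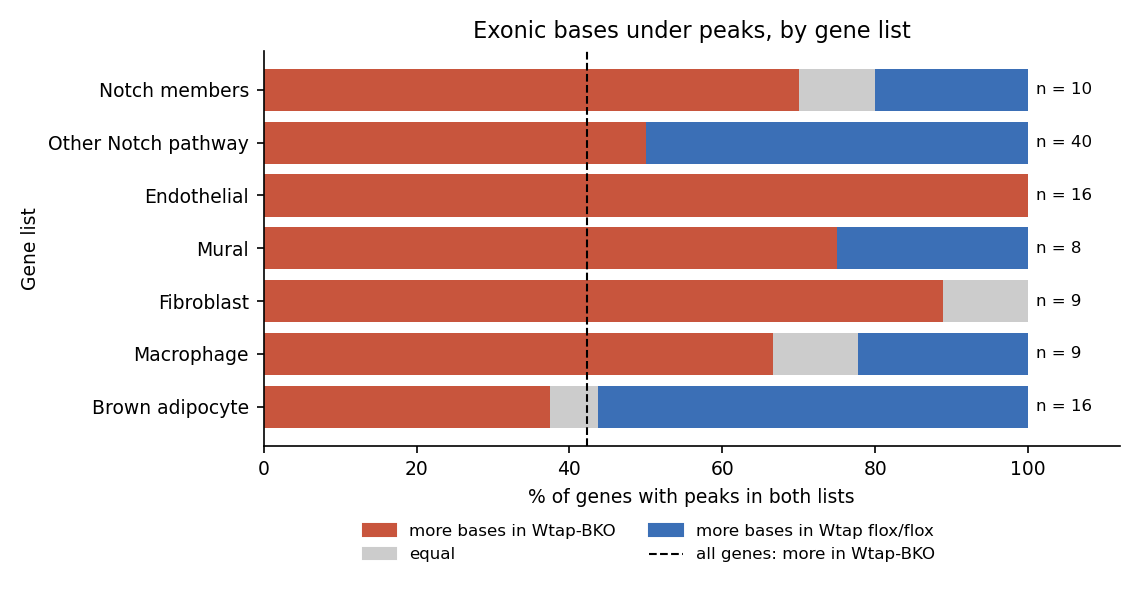
Share of genes with peaks in both lists that had more (red), equal (grey) or fewer (blue) exonic bases under peaks in *Wtap*-BKO than in control iBAT, in percent, by gene list with its number of genes. The dashed line marks the 42.3% of all genes with more bases in *Wtap*-BKO. To its right lie the Notch members (7 of 10), other pathway genes (20 of 40), and the endothelial (16 of 16), mural (6 of 8), fibroblast (8 of 9) and macrophage (6 of 9) markers. Brown adipocyte markers (6 of 16) lie just to its left.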

How the data were processed

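RNA of iBAT (m6A IP and input) was sequenced in each of 2 genotypes as paired reads of 150 bp, and groups were taken from the sample labels. The submitters' processing notes name fastp 0.19.11, BWA 0.7.12, HOMER 4.9.1 and GRCm38.p6, whereas the paper's methods name MACS2 for peaks; which program wrote the lists was not settled. Each list was made by the authors from 1 pooled IP against its input and was limited to a false discovery rate under 0.05. The deposited columns used were the p-value of each peak, the log10 values of both that p-value and the false discovery rate (kept as scores, with 147 and 83 peaks at a rate of 0, ranked first), and the fold enrichment, a ratio of IP over input deposited by the authors, whose scaling is not given in the sources used here.

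Python 3.11.15 (numpy 2.4.6, scipy 1.17.1; figures by matplotlib 3.10.9) served for all steps. All peaks were matched and ranked, and the member rows were then taken out. In a simulated copy of the *Wtap* flox/flox list, with peaks kept, shortened or removed, the copy of each peak was found or missed rightly for 18400 of 18400 peaks. This checks the overlap search alone, since shifted edges were not simulated and matches to other peaks were not counted. Gene ends came from a RefSeq table of GRCm38.p6. Shares have 95% Wilson intervals. The members and gene lists were chosen with earlier results of these data known. Genes named are all members, pathway genes with a peak in 1 list alone or, in both, in the strongest 5% of either, and up to 4 of a marker list whose counts differ. Alternatives were the overlap, the threshold (1e-05), the measure of rank and the window at the gene end, and 3 of them were chosen after seeing the data. A result that this rule would name is not reported here.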

Additional observations from a re-analysis of the deposited data

How the results depend on the processing

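Of 44 alternative settings, 32 left the value near the main one and 12 moved it. With any peak on the same gene as a match, 100% of the member peaks of each list had a partner, in place of 88.9% and 78.6%. With a false discovery rate under 1e-05 and partners sought among all peaks these shares were 100% and 90.9%, and with that threshold in both lists 100% for *Wtap* flox/flox. With at least 2 peaks on the gene, 31 pathway genes were in both lists in place of 50. By fold enrichment as deposited 10 of 24 pairs were higher in *Wtap*-BKO in place of 22, so that most were lower, and ranked by fold 13 *Wtap*-BKO member peaks ranked above 50% of their list in place of 20. Within 500 bp of the 3′ end lay 3 *Wtap* flox/flox and 4 *Wtap*-BKO member peaks and within 2000 bp 14 and 16, in place of 6 and 9 within 1000 bp. The causes were not tested, beyond what the wider or narrower definitions set by construction.

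No paired analysis was possible because each genotype is 1 pooled sample, and leaving out a replicate was not possible. The read depth is unknown. The pairs sharing at least 50% of both peaks and the values as deposited were alternatives chosen after seeing the data.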
